A study of Rattus norvegicus with 7 samples.

Results

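The genes described here encode the fibrous scaffold outside cells, that is collagens, laminins, fibulins, fibrillins, elastin, fibronectin, small proteoglycans, matricellular proteins and the enzymes that cross-link collagen. They were chosen by gene symbol alone, and where a gene had several probes the brightest one stood for it. The choice gave 51 genes of the 13337 genes with a symbol on the array. The symbol rule itself used no measured value, but it was set with earlier results of these data known. The brightest probe was picked by intensity.

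Messenger RNA of rat brain was measured after embolic middle cerebral artery occlusion (eMCAo), in which a clot injected into the artery blocks blood flow to part of 1 hemisphere. There were 7 Illumina bead arrays, 1 of brain from normal rats without surgery and 1 each of ischemic brain at 12, 24, 48, 72, 120 and 168 hrs after eMCAo. The rats were male Wistars weighing 280 to 320 g, with no other treatment and no transgene. The sources used here name neither the brain region taken nor the number of animals behind an array, and the 12 and 24 hrs arrays form the acute phase and the 48, 72, 120 and 168 hrs arrays the recovery phase of the study.

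In a healthy brain, collagen is mostly restricted to the meninges and to the walls of vessels. There, sheets of type IV collagen and laminin form the basement membrane under the endothelium. Fibrillar collagens carry tension in scars, where they are secreted as procollagens, trimmed, and then cross-linked by lysyl oxidases. Fibronectin and matricellular proteins such as periostin and SPARC guide the assembly of such a matrix rather than bear load themselves.

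The values are probe intensities on a linear scale as deposited. For comparisons they were background-corrected, raised by an offset of 16, put on the log2 scale and quantile normalized, so every fold change is on the log2(value + 16) scale and understates the change of dim genes. A gene was called detected on an array where its intensity was above a limit between 8.72 and 10.1, and it was counted as higher or lower than normal where the 2 levels differed at least 2-fold and 1 or both arrays detected it. Each group had 1 array, so this rule goes by size and involves no test. Median intensities of the 7 arrays lay between 13.1 and 16.5, and between 8656 and 9066 genes were detected. The brain label was borne out by its markers, with 16 of 16 neuronal, 11 of 11 astrocytic and 16 of 18 microglial and macrophage genes detected on the normal array. In whole tissue, fewer cells of a type and less RNA per cell cannot be told apart.

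Of the 51 matrix genes, 30 were detected on all 7 arrays, 13 on 1 to 6 arrays and 8 on none. The undetected genes were Col2a1, Col4a3, Col4a5, Col5a3, Col6a2, Col6a4, Lamc3 and Loxl4. The normal array detected 37.

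Most matrix genes that passed the 2-fold rule did so at 72 or 120 hrs, and all of them were higher than normal. At 12, 24 and 48 hrs, 4 of 39, 6 of 41 and 7 of 42 detected matrix genes were at least 2-fold higher than normal, that is 10.3%, 14.6% and 16.7% of them. At 72, 120 and 168 hrs the counts were 20 of 39, 22 of 40 and 12 of 40, or 51.3%, 55% and 30%. Among all genes the same rule gave 3.16%, 4.55%, 6.04%, 8.28%, 9.09% and 5.01% higher at the 6 times in order. The share of matrix genes was thus above that of all genes at every time, and the gap was widest at 72 and 120 hrs. No matrix gene was at least 2-fold lower than normal at any time, while 0.903%, 2.69%, 2.63%, 4.01%, 4.78% and 0.914% of all genes were lower at 12, 24, 48, 72, 120 and 168 hrs. With negative intensities set to 0 in place of the background correction, 2 matrix genes passed as lower at 12 hrs (Col14a1 and Lum) and 2 at 24 hrs (Col1a1 and Col13a1), at log2 -1.02 to -1.27. In that setting 123 of all 9190 detected genes passed as lower at 12 hrs and 327 of 9339 at 24 hrs.

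**Figure D1:**
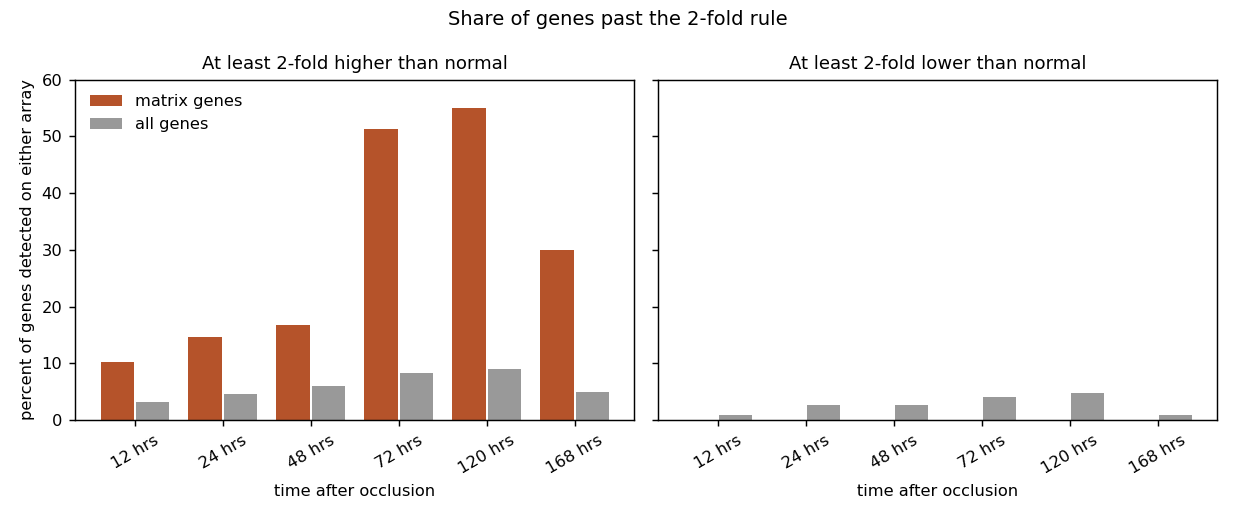
Percent of detected genes at least 2-fold higher (left panel) or lower (right panel) than the normal array at each time after eMCAo, for matrix genes (left bars) and for all genes (right bars), 1 array per time. The bars of matrix genes reach 51.3% at 72 hrs and 55% at 120 hrs against 8.28% and 9.09% of all genes, and no matrix gene is in the right panel.

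The detected matrix genes had medians of -0.05, 0.20, 0.18, 1.01, 1.10 and 0.52 for the log2 difference from normal at 12, 24, 48, 72, 120 and 168 hrs. Over all detected genes it stayed between -0.07 and -0.02. A gene that was dim on the normal array enters a time only if it was bright there, so the 37 matrix genes detected on the normal array were also taken alone, and their medians were -0.06, 0.19, 0.16, 1.01, 1.11 and 0.53. Among these 37, the genes at least 2-fold higher numbered 4, 6, 7, 19, 20 and 12. Of all 8656 genes detected on the normal array, 235, 338, 407, 604, 660 and 372 were at least 2-fold higher. Their medians were -0.06, -0.06, -0.07, -0.11, -0.11 and -0.08.

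In all, 24 matrix genes were at least 2-fold higher than normal on 1 or more arrays. The brightest time of these 24 was 120 hrs for 14 (58.3%), 72 hrs for 6 (25%), 48 hrs for 2, and 24 and 168 hrs for 1 each. Of the 1220 genes of the array that were higher at least once, 44.8% were brightest at 120 hrs and 22.2% at 72 hrs. The largest rise between arrays next to each other in time was that from 48 to 72 hrs in 11 of the 24 (45.8%), against 19.6% of the 1220. The values showed a dip followed by a late peak in some genes, an early peak in others, and a raised level from 12 hrs on in a few.

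**Figure D2:**
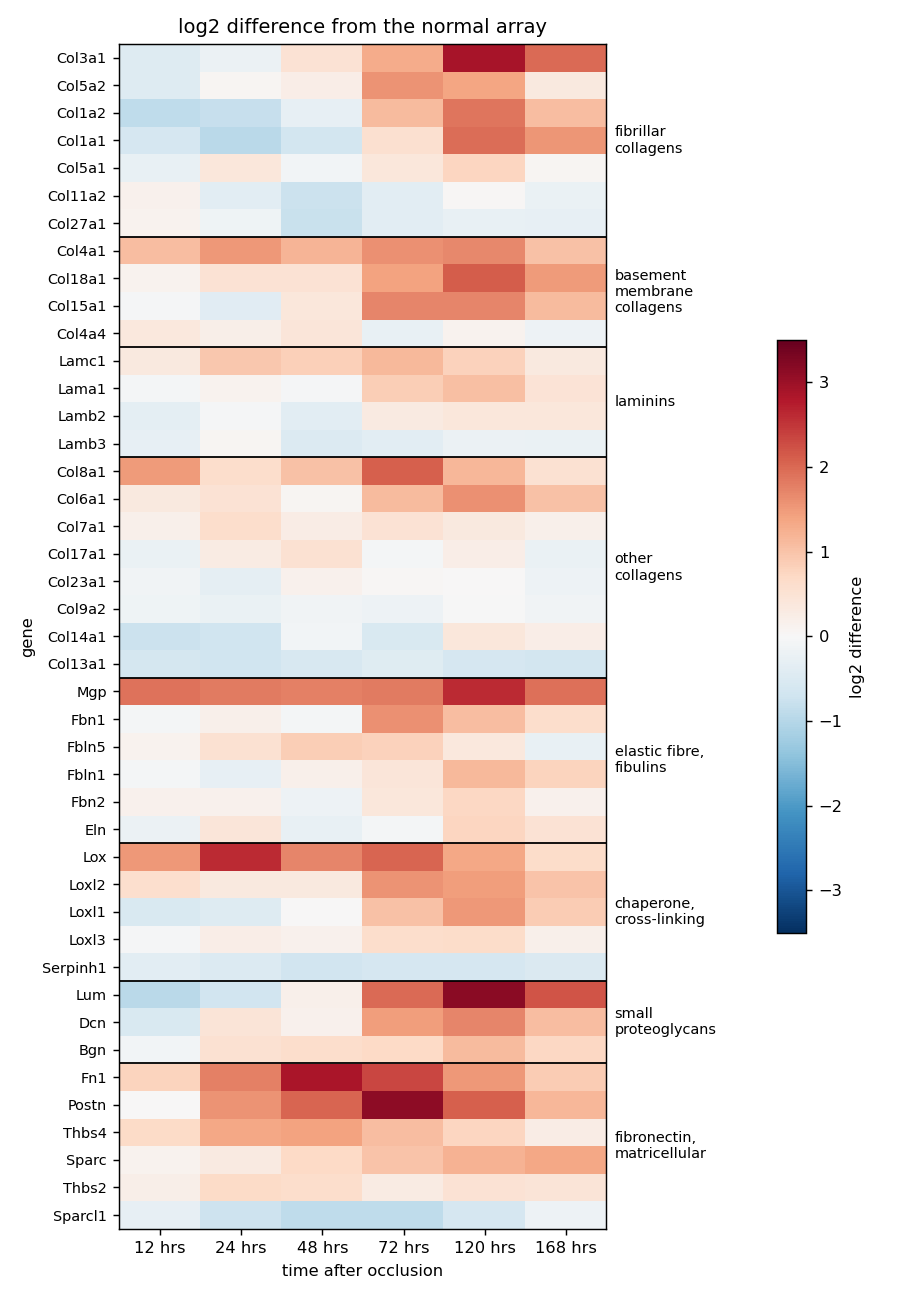
log2 difference from the normal array for the 43 matrix genes detected on at least 1 array (rows, grouped by role) at 6 times after eMCAo (columns). Red is above and blue below normal. Col1a2, Col3a1, Lum and Dcn pass from blue at 12 hrs to red at 72 to 168 hrs, and Mgp and Col4a1 are red throughout.

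Of 9 fibrillar collagens on the array 7 were detected. At 12 hrs 5 of these 7 were below normal, so 28.6% were above it, against 46% of all detected genes. At the 6 times 0, 0, 0, 3, 4 and 3 of the 7 were at least 2-fold higher. At 72, 120 and 168 hrs that was 42.9%, 57.1% and 42.9%, against 8.28%, 9.09% and 5.01% of all genes. Col1a2, a chain of type I collagen, had an intensity of 1369 on the normal array, and of 744, 827, 1172, 3759, 5824 and 2985 at 12, 24, 48, 72, 120 and 168 hrs. The first 3 arrays after eMCAo were therefore all below normal and the last 3 all above, with log2 differences of -0.88 at 12 hrs and 1.87 at 120 hrs (3.65-fold higher). Col1a1, the partner chain of type I collagen, gave 29.4 on the normal array and then 13.7, 4.67, 11.6, 71, 230 and 142. It followed the course of Col1a2, was not detected at 24 hrs (at least 1.68-fold lower) and was 3.9-fold higher than normal at 120 hrs.

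Col3a1, the chain of type III collagen that accompanies type I in early scars, had the widest change of the fibrillar collagens. Its intensity was 74.5 on the normal array and 51.5, 70.1, 129, 282, 841 and 388 at the 6 times. That was below normal at 12 hrs, at log2 -0.45, and 7.35-fold higher at 120 hrs. Col5a2, a type V chain that helps to start fibrils, gave 118 on the normal array and 83, 137, 157, 497, 413 and 165 afterwards, so its peak of 2.94-fold came at 72 hrs. Col5a1, the other type V chain detected, stayed below the 2-fold rule, with its highest log2 difference of 0.76 at 120 hrs. Col11a2 and Col27a1, minor fibrillar chains known best from cartilage, went the other way, with their lowest values at 48 hrs, at log2 -0.74 and -0.77.

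RefSeq promoter windows (build GRCr8, 250 bases before to 50 bases after the annotated start) were matched by gene identifier for 36 of the 51 genes. The symbols were the same in all 36. They are shown for 5 genes that stand for 3 different time courses on the arrays. Col1a2 lies at chr4:33518307-33518606 (plus strand), Lum at chr7:34245456-34245755 (plus strand) and Loxl1 at chr8:67612175-67612474 (minus strand), all of which dipped before they rose. Postn, at chr2:140677811-140678110 (plus strand), was highest at 72 hrs, and Col4a1, at chr16:84885347-84885646 (plus strand), was above normal on all 6 arrays. The start site follows base 250 of each window. Capitals mark the CCAAT box, the GC box (GGGCGG), the AP-1 element (TGANTCA), the SMAD element (CAGACA) and the TATA box (TATAAA), searched on both strands. On the opposite strand a CCAAT box reads as ATTGG in the line and a GC box as CCGCCC.
Col1a2: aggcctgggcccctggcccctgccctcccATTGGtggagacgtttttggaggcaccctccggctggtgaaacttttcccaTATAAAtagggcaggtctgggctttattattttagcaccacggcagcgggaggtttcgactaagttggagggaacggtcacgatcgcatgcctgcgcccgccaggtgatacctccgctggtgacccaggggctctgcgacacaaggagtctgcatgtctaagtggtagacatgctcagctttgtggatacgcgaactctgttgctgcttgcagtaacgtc
Lum: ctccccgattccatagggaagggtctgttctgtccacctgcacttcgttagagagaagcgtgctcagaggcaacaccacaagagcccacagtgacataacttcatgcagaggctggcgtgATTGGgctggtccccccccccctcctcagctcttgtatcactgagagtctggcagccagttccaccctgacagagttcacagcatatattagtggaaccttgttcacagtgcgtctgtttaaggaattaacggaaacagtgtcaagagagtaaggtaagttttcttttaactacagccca
Loxl1: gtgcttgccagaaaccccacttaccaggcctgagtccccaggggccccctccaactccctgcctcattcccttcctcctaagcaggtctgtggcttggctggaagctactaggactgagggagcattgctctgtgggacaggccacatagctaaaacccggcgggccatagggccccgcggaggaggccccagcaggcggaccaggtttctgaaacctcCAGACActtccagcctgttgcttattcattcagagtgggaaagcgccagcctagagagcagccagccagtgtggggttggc
Postn: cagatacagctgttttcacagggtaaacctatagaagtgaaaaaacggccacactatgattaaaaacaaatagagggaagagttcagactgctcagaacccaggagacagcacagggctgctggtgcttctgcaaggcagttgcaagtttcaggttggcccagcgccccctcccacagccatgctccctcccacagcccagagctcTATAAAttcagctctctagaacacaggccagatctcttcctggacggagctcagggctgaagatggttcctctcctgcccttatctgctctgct
Col4a1: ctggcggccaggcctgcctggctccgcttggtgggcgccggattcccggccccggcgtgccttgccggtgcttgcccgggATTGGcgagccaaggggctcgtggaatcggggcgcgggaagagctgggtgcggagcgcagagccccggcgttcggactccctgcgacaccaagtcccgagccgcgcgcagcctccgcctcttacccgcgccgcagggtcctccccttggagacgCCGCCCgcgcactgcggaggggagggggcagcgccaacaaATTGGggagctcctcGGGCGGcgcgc

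In the Col1a2 window, an inverted CCAAT began at base 30 and TATAAA at base 81. Lum had an inverted CCAAT at base 121, Loxl1 a CAGACA at base 220 and Postn a TATAAA at base 207. Col4a1 had no TATAAA but 2 inverted CCAAT, at bases 81 and 275, and 2 GGGCGG, at bases 235 (inverted) and 290. CCAAT was found in 37.7% of all 27457 windows, GGGCGG in 34.9%, TGANTCA in 7.3%, CAGACA in 20.8% and TATAAA in 14.3%. In the 36 matrix gene windows the shares were 27.8%, 47.2%, 2.78%, 27.8% and 11.1% in that order. In the 15 matched genes that were at least 2-fold higher once they were 26.7%, 33.3%, 6.67%, 53.3% and 13.3%. These matches are letters in a window and say nothing of whether a factor bound there.

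Among basement membrane collagens, Col4a1 passed the 2-fold rule from 12 hrs on, Col18a1 and Col15a1 passed it from 72 hrs on, and Col4a4 never did. Col4a1, a chain of the type IV collagen found in every basement membrane, gave 52.8 on the normal array and 151, 223, 173, 277, 281 and 144 at the 6 times. It was above normal on each array, by 2.03-fold at 168 hrs to 3.22-fold at 120 hrs. With an offset of 50 it missed 2-fold at 12, 48 and 168 hrs, at log2 0.86, 0.94 and 0.80. Col18a1, whose C-terminal fragment is endostatin, gave 21.6 on the normal array and 28.1, 46, 46.9, 125, 216 and 110 afterwards, with a fold of 4.32 at 120 hrs. Col15a1, its close relative at the outer face of vessel basement membranes, gave 26 on the normal array and then 27.3, 16.8, 48.9, 177, 175 and 88.6. Its normalized level was below normal at 24 hrs, at log2 -0.39, and 3.24-fold and 3.27-fold higher at 72 and 120 hrs. At 72, 120 and 168 hrs, 3 of 3 detected basement membrane collagens passed the 2-fold rule, against 8.28%, 9.09% and 5.01% of all genes. Of the 6 on the array, Col4a3 and Col4a5 were never detected, and Col4a4 was detected neither at these times nor on the normal array. Col4a4, a chain of specialised basement membranes, was detected on 3 arrays and stayed within a log2 difference of 0.43.

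Laminins are the cross-shaped trimers that anchor cells to the basement membrane, and the chains measured here moved less. Of 14 laminin and nidogen genes looked for, 5 were found, all laminins, and 4 of these were detected on at least 1 array. Lama2, Lama4, Lama5 and Lamb1 were not among the 51 genes. Lamc1, the gamma chain shared by most laminins, gave 24.1 on the normal array and 41.2, 78.9, 71.4, 105, 78 and 38.2 afterwards. It was above normal on all 6 arrays but passed 2-fold at 72 hrs alone (2.18-fold). Lama1, an alpha chain of early and meningeal basement membranes, was not detected on the normal array, reached 42.3 at 72 hrs and 53.8 at 120 hrs, and at 120 hrs was at least 1.99-fold higher than the lowest detected level of the normal array (log2 1.06 against its own value there). Lamb2, a beta chain of vessel laminins, gave 174 on the normal array and then 140, 189, 145, 287, 291 and 256, which is within a log2 difference of 0.41 throughout. No nidogen was among the 51 genes, so that part of the basement membrane was not analysed here.

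Of the other collagens, Col8a1 and Col6a1 passed the rule. Col8a1, a short-chain collagen of vessel walls, gave 80.7 on the normal array and 285, 152, 209, 534, 254 and 134 at the 6 times. It peaked at 12 hrs (2.8-fold) and again at 72 hrs (4.24-fold), with a lower value of log2 0.61 at 24 hrs between these peaks. Col6a1, a chain of the beaded-filament type VI collagen, gave 69.2 on the normal array and 100, 121, 84.4, 225, 313 and 178 afterwards, and was 3-fold higher than normal at 120 hrs. Col14a1, a collagen that sits on fibril surfaces, dropped out of detection at 12, 24 and 72 hrs and was at log2 0.41 at 120 hrs, with an intensity of 45.6 there and 20.9 on the normal array. Col7a1, the anchoring fibril collagen, was above normal on all 6 arrays, by at most log2 0.62. The remaining 4 detected genes (Col9a2, Col13a1, Col17a1 and Col23a1) were seen on 1 to 3 arrays each.

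Mgp stood apart among the genes of elastic fibres. It encodes matrix Gla protein, an inhibitor of calcification in vessel walls and cartilage, and gave 422 on the normal array and 1728, 1653, 1556, 1970, 3215 and 1765 at the 6 times. All 6 values were between 3.36-fold and 6.15-fold above normal on the normalized scale, with little change from 12 to 72 hrs. Fbn1, the main fibrillin of microfibrils, gave 19.7 on the normal array and 19.7, 29.6, 20, 140, 86.9 and 43.9 afterwards. It was near normal to 48 hrs and 3.04-fold higher at 72 hrs. Fbln1, a fibulin of basement membranes and fibres, gave 774 on the normal array and then 760, 690, 924, 1310, 2023 and 1403, which passed the rule at 120 hrs (2.18-fold). Fbln5, which links elastin to microfibrils, was highest at 48 hrs, at log2 0.86. Eln and Fbn2 were highest at 120 hrs, at log2 0.76 and 0.73. A second probe of Fbn2 gave values below 0 on every array.

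The enzymes that act on collagen did not share 1 course. Lox, the lysyl oxidase that starts cross-linking, gave 68.2 on the normal array and 260, 610, 313, 460, 257 and 129 at the 6 times. It peaked at 24 hrs, 6.09-fold higher than normal, at a time when no fibrillar collagen passed the rule, and was at log2 0.64 by 168 hrs. Loxl1, its relative that acts mainly on elastic fibres, gave 98.3 on the normal array and then 64.5, 73.9, 111, 289, 397 and 216. That is the course of Col1a2, with log2 differences of -0.52 at 12 hrs and 1.51 at 120 hrs. A second probe of Loxl1 ran in parallel, at 72.5 on the normal array and 43.9, 52.6, 84.1, 194, 260 and 154 afterwards. Loxl2, which acts on type IV collagen, was not detected on the normal array and was at least 2.3-fold higher at 72 hrs, where it reached 67.1. Loxl3 stayed below the rule, at log2 0.63 or less.

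Serpinh1, the procollagen chaperone HSP47 that collagen-making cells need, was highest on the normal array. Its intensity was 85.1 on the normal array and 63.7, 60.9, 49.6, 61.7, 60.8 and 54 at the 6 times. Each array after eMCAo was below normal, by log2 -0.37 to -0.68, and this sign held under each alternative normalization. None of these differences passed 2-fold.

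All 3 small leucine-rich proteoglycans, which coat collagen fibrils and set their width, were highest at 120 hrs, and Lum and Dcn were below normal at 12 hrs. Lum, encoding lumican, had an intensity of 135 on the normal array and 62.8, 84.5, 175, 779, 1709 and 750 at the 6 times. Its log2 difference was -0.93 at 12 hrs and 3.17 at 120 hrs. With quantile normalization that 9-fold difference was the largest of any of the 51 genes on any array. Dcn, encoding decorin, gave 481 on the normal array and 337, 723, 582, 1726, 1919 and 1077 afterwards, and was 3.25-fold higher at 120 hrs. Bgn, encoding biglycan, gave 30.3 on the normal array and then 29.8, 62.4, 68.6, 81.7, 119 and 68.7, and passed the rule at 120 hrs (2.16-fold).

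**Figure D3:**
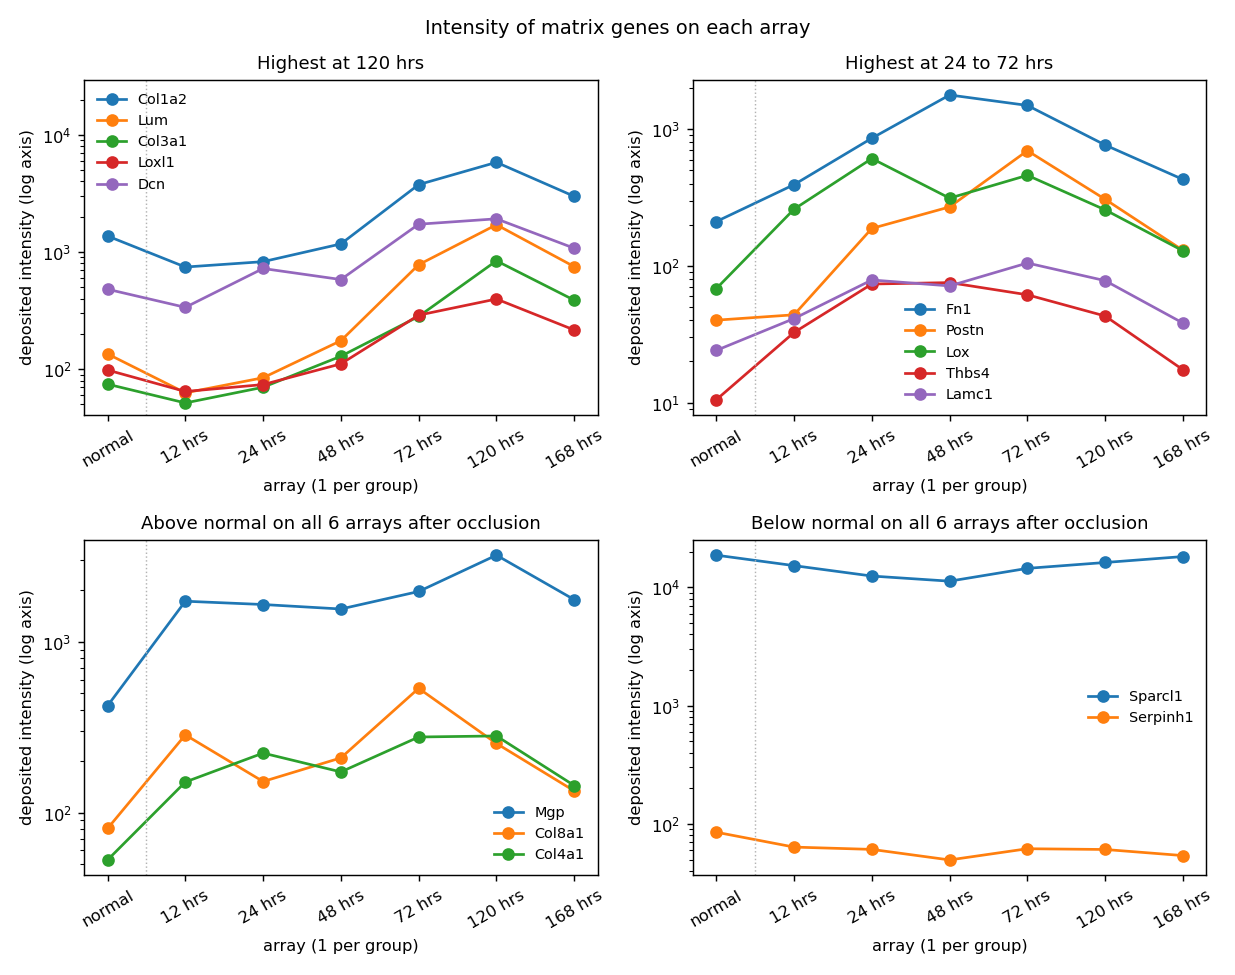
Deposited intensity (log axis) of 15 matrix genes on the normal array and on the 6 arrays after eMCAo (x axis, 1 array each), in panels by time course. Col1a2, Lum, Col3a1, Loxl1 and Dcn lie below normal at 12 hrs and peak at 120 hrs, Lox, Fn1 and Postn peak at 24, 48 and 72 hrs, Mgp and Col4a1 are already raised at 12 hrs, and Sparcl1 and Serpinh1 lie below normal at all 6 times (median scaling puts Sparcl1 at log2 0.03 at 168 hrs).

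Fibronectin and the matricellular genes were highest at different times. Fn1, encoding fibronectin, on which a provisional matrix is built, gave 211 on the normal array and 393, 859, 1779, 1492, 766 and 429 at the 6 times, and was 7.21-fold higher at 48 hrs. Postn, encoding periostin, a partner of collagen and fibronectin in scars, gave 40.1 on the normal array and 43.9, 188, 270, 696, 307 and 130 afterwards. It was at normal level at 12 hrs and 8.67-fold higher at 72 hrs, next in size to that of Lum. Thbs4, a thrombospondin, gave 10.5 on the normal array and 32.6, 73.7, 75.5, 61.5, 43 and 17.4 afterwards, with a peak of 2.65-fold at 48 hrs. Thbs2 was not detected on the normal array and did not pass the rule, with a highest log2 difference of 0.66 at 24 hrs.

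Sparc and its relative Sparcl1 moved in opposite directions. Sparc, which binds collagen and helps procollagen to leave the cell surface, gave 1094 on the normal array and 1203, 1424, 1813, 2759, 2959 and 2859 at the 6 times. It was the 1 gene of the 24 whose normalized level was highest at 168 hrs (2.56-fold). Sparcl1, encoding hevin of astrocytes, which promotes synapses, gave 18713 on the normal array and 15266, 12466, 11281, 14478, 16228 and 18213 afterwards. Its log2 difference was -0.88 at 48 and 72 hrs and -0.18 at 168 hrs, where median scaling turned the sign (0.03), and the 72 hrs value was -0.37 without normalization between arrays.

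Of the 22 genes at least 2-fold higher at 120 hrs, all but Lama1 had been detected without eMCAo or 12 hrs after it, that is 21. At 12 hrs, 11 of these 21 (52.4%) had been below normal, against 29.5% of the 750 such genes of the array. They were Bgn, Col15a1, Col1a1, Col1a2, Col3a1, Col5a2, Dcn, Fbln1, Fbn1, Loxl1 and Lum. For Col1a1, Col1a2, Col3a1, Col5a2, Dcn, Loxl1 and Lum the difference at 12 hrs was between -0.45 and -0.93, and for the others it was between -0.05 and -0.09. Without normalization between arrays, Bgn, Col15a1 and Fbn1 were at or above normal at 12 hrs (0.00, 0.05 and 0.01).

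The recovery and acute arrays were then compared with limma over 9449 genes, each detected on 2 or more of the arrays after eMCAo, of which 39 were matrix genes. Arrays of a phase were different times and not replicate animals, so the test set the phases against the spread between times. No gene passed an adjusted p of 0.05 (0% higher and 0% lower of all genes), and hence no matrix gene. At an unadjusted p of 0.05, 13 matrix genes were higher in recovery and 0 lower, that is 13 of 39 against 12.2% of all genes higher and 11.2% lower. This count was 5 without the 12 hrs array, 8 without the 72 hrs array, and 18 higher with 1 lower without the 48 hrs array. In 10 of the 39 all 4 recovery arrays were above both acute arrays, against 15.8% of all genes, and in 2 (Col27a1 and Serpinh1) all were below, against 18.5%. The median difference was 0.38 over the 39 genes and -0.04 over all genes. With limma's moderation run without a trend in the spread and without its robust option, 0 matrix genes again passed the adjusted threshold and 13 had an unadjusted p under 0.05.

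The largest difference was that of Lum, which averaged 9.37 on the 4 recovery arrays and 6.67 on the 2 acute arrays on the log2 scale, a difference of 2.69 ± 0.71 (SE, limma adjusted p = 0.1). Col3a1 differed by 1.99 ± 0.58 (limma adjusted p = 0.117) and Col1a2 by 1.79 ± 0.52 (limma adjusted p = 0.114). The smallest adjusted p was that of Sparc, at 0.0811, for a difference of 0.86 ± 0.20. Fibrillar collagens and small proteoglycans had the highest medians of the 8 role groups, 1.07 and 1.14. At the other end, Lox was lower in recovery, by -0.64 ± 0.43 (limma adjusted p = 0.412), with overlap between the phases. Mgp (0.17 ± 0.25) and Col4a1 (0.08 ± 0.23) differed between the phases by less than 1 standard error.

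The 48 hrs array decided the count of calls. Without it, limma called 565 of the 9449 genes and 8 of the 39 matrix genes, all higher in recovery. These were Lum (3.26 ± 0.35), Col1a2 (2.20 ± 0.25), Loxl1 (1.63 ± 0.21), Col15a1 (1.72 ± 0.24), Sparc (0.99 ± 0.15), Col3a1 (2.37 ± 0.43), Col1a1 (2.11 ± 0.40) and Col18a1 (1.35 ± 0.26), with limma adjusted p between 0.0168 and 0.0395. Leaving out any of the other 5 arrays called 0 matrix genes.

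**Figure D4:**
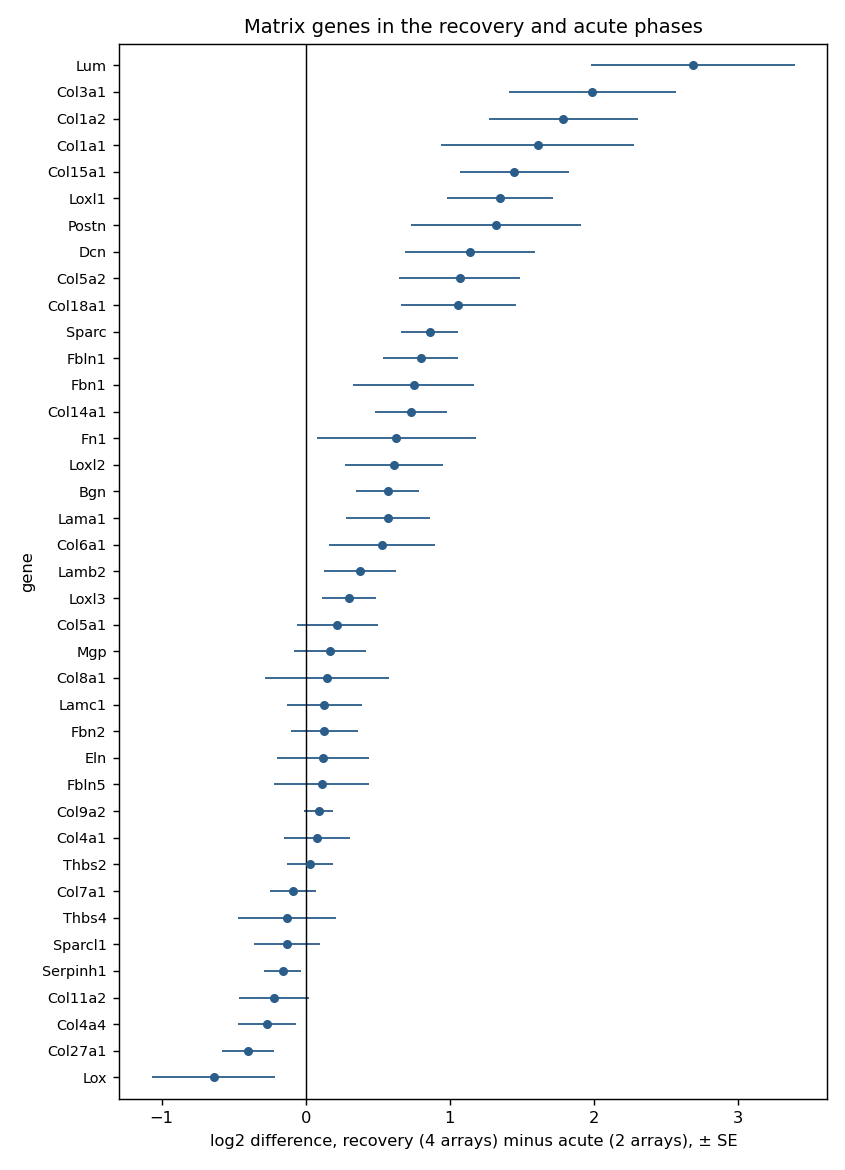
log2 difference of each of the 39 matrix genes tested, recovery (4 arrays) minus acute (2 arrays), with the standard error from limma as bars. Lum, Col3a1 and Col1a2 lie farthest to the right, at 2.69, 1.99 and 1.79, and Lox farthest to the left, at -0.64, and no gene passes the adjusted threshold.

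Genes that process collagen were followed as a list of 24, of which 20 were on the array and 18 detected. The genes at least 2-fold higher numbered 1, 1, 2, 3, 6 and 2 at the 6 times, none was 2-fold lower, and the median log2 difference was 0.74 at 120 hrs. The shares higher were 5.88%, 5.56%, 11.1%, 16.7%, 35.3% and 11.8%, against 3.16%, 4.55%, 6.04%, 8.28%, 9.09% and 5.01% of all genes. Fkbp10, a collagen chaperone of the endoplasmic reticulum, gave 228 on the normal array and 234, 540, 536, 1086, 959 and 573 afterwards. P4hb, a subunit of prolyl 4-hydroxylase, gave 1875 on the normal array and then 3032, 4440, 4338, 5909, 5822 and 3611. Both were highest at 72 or 120 hrs, at a log2 difference of 1.79 for Fkbp10 and 1.42 for P4hb. Colgalt1, which adds galactose to collagen, reached log2 1.46 and Plod3, a lysyl hydroxylase, 0.99.

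Matrix receptors (19 on the array, 16 detected) had 1, 4, 3, 6, 5 and 1 genes at least 2-fold higher and 0 lower. The shares higher were 6.67%, 26.7%, 20%, 37.5%, 33.3% and 6.67%, against 3.16%, 4.55%, 6.04%, 8.28%, 9.09% and 5.01% of all genes. Cd44, the hyaluronan receptor, gave 25.5 on the normal array and 218, 625, 526, 430, 304 and 137 at the 6 times, 11.5-fold higher at 24 hrs. Sdc1, a syndecan, was not detected on the normal array and was at least 8.16-fold higher at 48 hrs. Cd36, a receptor of thrombospondins on phagocytes and endothelium, reached log2 2.17 at 72 hrs, and Itga5, the alpha chain of the fibronectin receptor, was at least 3.13-fold higher at 72 hrs.

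In the TGF-beta axis (15 on the array, 14 detected), 2, 6, 2, 4, 3 and 1 genes were at least 2-fold higher and 0 lower. The shares higher were 16.7%, 42.9%, 15.4%, 28.6%, 21.4% and 7.14%, against 3.16%, 4.55%, 6.04%, 8.28%, 9.09% and 5.01% of all genes. Tgfb1, the cytokine that induces collagen in fibroblasts, gave 24.5 on the normal array and 115, 157, 177, 302, 545 and 267 at the 6 times. Relative to the normal array, the fold of Tgfb1 rose from 2.69 at 12 hrs to 9.63 at 120 hrs. That was the brightest time of 14 of the 24 matrix genes, but also of 44.8% of the 1220 genes higher at least once. Recovery minus acute was 0.93 for Tgfb1 and had a median of -0.13 over the 14 tested genes of the list. Whether Tgfb1 has a part in the matrix values was not tested. Tgif1 and Tgfbi, a repressor and a matrix protein of the pathway, were highest at 72 hrs (log2 1.42) and at 48 hrs (intensity 136, against 17.8 on the normal array). Smad2 stayed below the rule, at log2 0.91 or less.

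Marker genes of the cells that could hold these transcripts moved too. None of them was a matrix gene of the set. Of the fibroblast and meninges list (16 on the array, 14 detected), 0, 1, 1, 0, 2 and 1 genes were at least 2-fold higher and 0, 3, 3, 4, 1 and 0 lower, with medians of -0.19, -0.43, -0.10, -0.10, 0.29 and 0.25. The shares higher were 0%, 7.14%, 7.14%, 0%, 14.3% and 7.69%, against 3.16%, 4.55%, 6.04%, 8.28%, 9.09% and 5.01% of all genes. The shares lower were 0%, 21.4%, 21.4%, 28.6%, 7.14% and 0%, against 0.903%, 2.69%, 2.63%, 4.01%, 4.78% and 0.914%. Their summed intensity ranged between 10930 and 23140 after eMCAo and was 22700 on the normal array, where Ptgds alone gave 15770. Without Ptgds the sum was 8694, 5976, 5181, 6638, 11630 and 10550 at the 6 times, against 6932 on the normal array. Cdh1 and Mfap5 were detected on no array. Ogn, a proteoglycan gene of meningeal fibroblasts, dipped and recovered, with 419 on the normal array and 280, 119, 184, 346, 638 and 514 at the 6 times. Mfap4, a microfibril gene, was below normal at 12, 24 and 48 hrs and reached log2 1.65 at 120 hrs. Pdgfra, like Mfap4 chosen after its values were seen, was at log2 0.82 at 72 and 120 hrs. Igfbp2 reached log2 1.07 at 120 hrs, whereas Ptgds was at -1.62 at 48 hrs and Slc22a6 at -1.15 at 24 hrs.

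The mural cell list (12 on the array, 7 detected) summed to between 770.5 and 2925 after eMCAo, with the maximum at 72 hrs, and to 906.7 on the normal array. That maximum rested on Tagln, which gave 1823 at 72 hrs, 423 of the 1666 at 120 hrs and 134 on the normal array. Medians were -0.02, 0.24, 0.15, 0.58, 0.46 and 0.08, with 1, 2, 2, 2, 3 and 2 genes higher and 0, 1, 1, 1, 0 and 0 lower. The shares higher were 14.3%, 28.6%, 28.6%, 28.6%, 42.9% and 28.6%, against 3.16%, 4.55%, 6.04%, 8.28%, 9.09% and 5.01% of all genes. Anpep and Tagln reached log2 3.11 and 3.19, Des 1.04, and Vtn was below normal on all 6 arrays, at log2 -0.53 to -1.95, while Rgs5, Cnn1, Notch3, Mylk and Lmod1 were detected on no array. The endothelial list (12 on the array, 10 detected) had medians between -0.30 and 0.11 and summed to between 2773 and 5846, against 5404 on the normal array. Within it, Vwf reached log2 2.12 at 72 hrs and Tie1 1.32 at 120 hrs, and Slco1c1 was between -1.09 and -2.43. Cdh5 and Slc2a1 were detected on no array.

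The microglia and macrophage list had 5, 9, 12, 15, 17 and 15 genes at least 2-fold higher at the 6 times. These were 27.8%, 50%, 66.7%, 83.3%, 94.4% and 88.2% of its detected genes, which numbered 18, and 17 at 168 hrs. Among all genes it was 3.16%, 4.55%, 6.04%, 8.28%, 9.09% and 5.01%. The list summed to 77850 at 120 hrs against 7201 on the normal array. Its median was 3.20 at 120 hrs, the time of the highest matrix median. Astrocyte genes had medians between -0.77 and -0.38 although Gfap was at log2 2.31 at 24 hrs, and neuronal genes had a median of -0.90 at 120 hrs. How far any of these cell types accounts for the matrix values was not tested.

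Markers of neighbouring tissue and of blood also differed between arrays. Choroid plexus markers summed to 32090 at 12 hrs against 14090 on the normal array, with 8 of 12 at least 2-fold higher, and lay between 6311 and 15260 on the other 5 arrays after eMCAo. Erythrocyte markers summed to 12480 at 12 hrs and 138.5 at 168 hrs, against 520.4 on the normal array, and markers of hypothalamus, thalamus and pituitary summed to between 1782 and 9861, with the highest sum at 120 hrs, against 730.2 on the normal array. The largest part of the last list's sum at 120 hrs was Pmch, singled out after its values were seen, with 5310 there and 36.6 on the normal array. Without Pmch the list summed to 4551 at 120 hrs, below the 5464 at 12 hrs and the 5175 at 24 hrs. Other genes of the list were higher at 120 hrs too, and Tshb, at 1408, was detected on that array only. At least 2-fold higher were 66.7%, 33.3%, 20%, 20%, 54.5% and 30% of the list's detected genes at the 6 times. Among all genes it was 3.16%, 4.55%, 6.04%, 8.28%, 9.09% and 5.01%. The part of these differences in the matrix values was not tested.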

How the data were processed

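Processed intensity values of 7 Illumina rat bead arrays were used as deposited. The authors' methods name 400 ng of total RNA, BeadStudio, a background subtraction and, without saying for which arrays, a normalization to 5S rRNA; the submitters' processing notes name GenomeStudio 1.8.0. Between 20.8% and 21.9% of the values on an array were below 0. A table with 48 columns of 12 arrays matched no sample and was not used. Of 22523 probes, 13793 had 1 gene symbol.

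With limma 3.58.1 (R 4.3.3), values were background-corrected per array with normexp (saddle-point fit), raised by 16 and, as log2, quantile normalized. The neqc method needs control probes or detection p-values, which could not be matched to these arrays. The detection limit, set after the values were seen, was the 98th percentile of the sizes of each array's negative values. Recovery and acute arrays were compared with lmFit and eBayes (trend, robust), two-sided, with Benjamini-Hochberg adjustment over all genes detected on at least 2 arrays. The procedure was run on simulated independent arrays with the smallest spread found between arrays and a constant shift between phases. The real arrays of a phase are different times, so that run does not show how the test behaves on them. All p-values measure the spread between these arrays.

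The matrix genes and the gene lists were chosen with earlier results of these data known. Per-array values were given for up to 4 matrix genes with the highest and up to 2 with the lowest mean difference in each role, for matrix genes past 2-fold on at least 5 arrays and for the smallest p-values, and, in other lists, for up to 4 genes with the largest mean difference. Alternatives tried were no normalization between arrays, median scaling, a floor of 0 without normexp, an offset of 50, the mean of all probes, no filter on dim genes, a detection limit at the 95th percentile, a 1.5-fold rule, eBayes with neither trend nor robust, the normal array in the fit, and each array left out.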

Additional observations from a re-analysis of the deposited data

Results flagged for a closer look

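Lum, Col3a1, Col15a1, Loxl1 and Fbln1 were marked because both acute arrays lay below normal and all 4 recovery arrays lay above it. Recovery minus acute was 2.69 for Lum, 1.99 for Col3a1, 1.45 for Col15a1, 1.35 for Loxl1 and 0.80 for Fbln1 on the log2 scale. The limma test of that difference passed the adjusted threshold for none of these 5 genes (smallest adjusted p 0.0959, for Col15a1). Without the 48 hrs array it passed for each of them but Fbln1, with limma adjusted p between 0.0168 and 0.0356. Both phases were set against the same normal array. In Col15a1 the log2 difference from normal at 12 hrs was -0.05 (0.05 without normalization between arrays).

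Lamb2 was marked because 1 array stood apart from the others of its phase. Its level at 48 hrs was below that at 72, 120 and 168 hrs by 0.88 of the range of the 4 recovery arrays. Chance marks about 1 in 20 such groups, and the 4 arrays are different times.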

How the results depend on the processing

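Of 96 counts of matrix genes past the fold rule under the alternatives, 82 equalled the main count or were within 1.5 times of it. The 96 include the counts of genes lower, whose main count was 0 at every time. A count of these that stayed 0 was taken as unchanged. Of 42 medians, 41 kept their direction. The 1.5-fold rule moved the matrix genes higher to 7, 10, 12 and 19 at 12, 24, 48 and 168 hrs, and those lower to 4, 6, 5, 1, 1 and 1 at the 6 times. Of all genes it put 650, 1004, 1102 and 842 higher at those times. It put 453, 892, 966, 1311, 1368 and 489 lower at the 6 times. The detected genes numbered 9190, 9339, 9368, 9409, 9389 and 9194 among all genes. Among matrix genes they numbered 39, 41, 42, 39, 40 and 40. An offset of 50 gave 4 matrix genes higher at 48 hrs and 13 at 72 hrs, against 387 and 567 of all genes. With a floor of 0 and no normexp, 2 matrix genes were at least 2-fold lower at 12 hrs (Col14a1 and Lum, -1.04 and -1.02) and 2 at 24 hrs (Col1a1 and Col13a1, -1.27 and -1.02). Of all genes, 123 and 327 were lower at these times in that setting. The median at 12 hrs was 0.03 without normalization between arrays, against -0.05. Causes were not tested beyond what these settings change by construction.

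Over the fits that left out 1 array, the matrix genes called higher in recovery numbered 0 to 8, with 8 without the 48 hrs array, and those called lower 0. Recovery minus acute spanned 0 in these fits for Col11a2 (-0.47 to 0.04), Col4a1 (-0.14 to 0.29), Col7a1 (-0.30 to 0.13), Col8a1 (-0.29 to 0.59), Eln (-0.19 to 0.44), Fbln5 (-0.09 to 0.35), Fbn2 (-0.02 to 0.27), Lamc1 (-0.16 to 0.42), Mgp (-0.03 to 0.26), Sparcl1 (-0.34 to 0.08), Thbs2 (-0.19 to 0.25) and Thbs4 (-0.49 to 0.22). For Sparcl1 it was also 0.12 under median scaling and 0.10 without normalization between arrays, against -0.13. Without the filter on dim genes, 13 of 13337 genes and no matrix gene passed the adjusted threshold. No paired analysis was possible because each group had 1 array and no shared replicate numbers. The number of arrays limits the precision, and values near the detection limit have no reliable order.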

Other observations

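Further genes of collagen processing, chosen after their values were seen, had different courses. Pcolce, an enhancer of procollagen trimming, had intensities of 17.2 on the normal array and 12.9, 15.9, 24.4, 65.9, 163 and 58.3 at 12, 24, 48, 72, 120 and 168 hrs, and Adamts2, a procollagen peptidase, had 27.3 on the normal array and 8.31, 7.79, 22.9, 46.7, 110 and 64.8. Both were highest at 120 hrs, at log2 differences of 1.91 and 1.11. Pcolce was below normal at 12 and 24 hrs on the normalized scale. Adamts2 was not detected at 12 and 24 hrs, where it was at least 1.57-fold and 1.61-fold lower than normal. The alpha subunits of prolyl 4-hydroxylase were highest early. P4ha1 gave 438 on the normal array and 712, 605, 361, 359, 466 and 296 afterwards, and P4ha2 39.4 and then 128, 97.4, 45.8, 25.7, 53.8 and 38.7. Both were highest at 12 hrs, and recovery minus acute was -0.88 ± 0.17 for P4ha1 and -1.11 ± 0.21 for P4ha2 (SE, limma adjusted p = 0.0778 for both).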
